A study of Mus musculus with 8 samples.

Results

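Interleukin-2 (IL-2) is the cytokine that regulatory T cells (Treg), a Foxp3-positive CD4 lineage that holds immune responses in check, need for survival and identity. It binds a receptor made of the alpha chain CD25 (Il2ra), the beta chain CD122 (Il2rb) and the common gamma chain. The kinases Jak1 and Jak3 sit on the beta and gamma chains and phosphorylate STAT5, and STAT5 in turn raises Socs1 and Cish, whose products damp the same pathway. The 6 genes Il2ra, Il2rb, Jak1, Jak3, Socs1 and Cish were taken by name from 21887 protein-coding genes of the RefSeq table of the mouse build GRCm38.p6 (mm10). Each was examined over its span with 5 kb on both sides, and all 6 had a position in the table.

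All samples were C57BL/6 mice aged 8 to 12 weeks, and the cells are labelled Treg in each. Open DNA, which a transposase cuts and tags in ATAC-seq, was mapped once in tumour and once in spleen, in both cases in cells of the genotype JMJD1CWT. The histone mark H3K9me2, which is typical of silent chromatin, was mapped by CUT&RUN, where a nuclease bound to an antibody cuts out the marked fragments. It was profiled in tumour Treg only, in 3 libraries of JMJD1CTregcKO mice (cKO), whose name stands for a conditional knockout in Treg of Jmjd1c, a gene of the JmjC histone demethylase family, and in 3 libraries of JMJD1CWT mice (WT). The driver of the deletion and the kind of tumour are not given in the sources used here. Separate animals are not stated for the replicates, and the spread behind the p-values may therefore be technical. In the file headers the names behind cKO replicates 1 and 3 carry one knockout number, and no name prefix is shared by the genotypes, so a batch these names may stand for and genotype cannot be told apart.

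The deposited values were peaks called in each library alone. The ATAC lists held 27655 peaks from 11293674 tags in tumour and 13089 peaks from 11068821 tags in spleen, with 11.03% and 4.77% of tags in peaks. Every peak was 322 bp wide in the tumour list and 869 bp wide in the spleen list, as the caller had set. The minimum distance between peaks was also set apart, at 644 bp in tumour and 1738 bp in spleen. Neighbouring open sites closer than this could therefore be called separately in tumour and not in spleen. The number and width of peaks therefore differed between the lists everywhere, and with 1 library each there was no test. The H3K9me2 libraries held 24774509 to 30313851 tags, and their peaks covered 89.3 to 141 Mb. WT replicate 1 had the emptiest genes, with no H3K9me2 peak at 45.5% of all protein-coding genes against 23.4 to 34.2% in the other 5 libraries. Of the T cell and Treg markers Cd3e, Cd4, Foxp3, Ctla4, Ikzf2 and Tnfrsf18, 5 of 6 carried a tumour ATAC peak, and Ctla4 carried none in either library. Markers of other cells were not all closed in tumour. A tumour peak was found at 1 of 5 CD8 T and NK cell genes, 2 of 4 B cell genes, 3 of 5 myeloid genes, 2 of 5 melanocyte and epithelial genes and 2 of 4 stromal and endothelial genes. Among the myeloid genes the tumour and spleen peaks were 3 and 0 at Spi1, 2 and 0 at Itgam and 2 and 1 at Cd68, and Csf1r and Lyz2 had none in either tissue. Among the stromal and endothelial genes they were 7 and 1 at Pecam1, 1 and 1 at Col1a1 and 0 and 1 at Cdh5, and Col1a2 had none. The part of other cells in the peaks described here was not tested. In a sorted pool, a site open in fewer cells and a site less open in each cell cannot be told apart.

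Promoter sequences of 5 of the 6 genes were matched in RefSeq (GRCm38.p6). Those of Il2ra, Socs1 and Cish are shown because open chromatin or H3K9me2 was called there differently from library to library. Each runs 5′ to 3′ on the gene's own strand from 250 bases before the annotated start to 20 bases after it. Capitals mark the bases under the tumour ATAC peak in Il2ra, the bases under the spleen ATAC peak in Socs1, and matches to the STAT motif TTCNNNGAA in Cish.
Il2ra, chr2:11642542-11642811, plus strand: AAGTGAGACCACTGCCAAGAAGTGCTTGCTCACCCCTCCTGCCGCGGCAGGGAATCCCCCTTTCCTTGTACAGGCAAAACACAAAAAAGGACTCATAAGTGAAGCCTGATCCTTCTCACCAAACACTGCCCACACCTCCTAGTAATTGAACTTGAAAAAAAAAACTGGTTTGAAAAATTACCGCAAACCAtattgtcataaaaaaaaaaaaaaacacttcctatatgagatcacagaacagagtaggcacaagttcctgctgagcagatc
Socs1, chr16:10785517-10785786, minus strand: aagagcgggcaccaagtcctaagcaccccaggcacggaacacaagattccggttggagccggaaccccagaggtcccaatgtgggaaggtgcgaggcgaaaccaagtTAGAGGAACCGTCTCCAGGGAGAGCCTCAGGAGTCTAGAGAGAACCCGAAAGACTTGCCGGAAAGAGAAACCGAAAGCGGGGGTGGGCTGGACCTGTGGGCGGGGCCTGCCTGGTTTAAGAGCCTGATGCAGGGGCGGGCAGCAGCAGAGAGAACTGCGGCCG
Cish, chr9:107296409-107296678, plus strand: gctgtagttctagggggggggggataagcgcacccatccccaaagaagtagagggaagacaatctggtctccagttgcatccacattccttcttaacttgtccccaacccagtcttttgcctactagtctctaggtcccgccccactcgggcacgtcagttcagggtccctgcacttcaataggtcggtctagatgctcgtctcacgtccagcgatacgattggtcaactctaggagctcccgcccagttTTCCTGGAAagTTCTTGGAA
The motif reads the same on both strands, and it was searched in 300 bases, from 250 before to 50 after the start. In that window Cish held 2 matches, which begin 0 and 11 bp from the annotated start and do not overlap. Of 32851 RefSeq promoters, 8.3% held the motif and 0.457% held it 2 or more times. No match lay in these windows of Il2ra, Jak1, Jak3 or Socs1. A match describes letters and not binding.

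Open chromatin was called at each of the 6 genes in both tissues, with 23 tumour peaks and 14 spleen peaks over all of them. Among all protein-coding genes, 59.9% had a tumour peak and 47.1% a spleen peak. Of the 23 tumour peaks, 11 (47.8%) touched a spleen peak by 1 bp or more, and of the 14 spleen peaks, 11 (78.6%) touched a tumour peak. Over the whole lists these shares were 40.3% and 85.1%. Tumour peaks outnumbered spleen peaks at 5 of the 6 genes, and Il2ra had 2 of each. More tumour than spleen peaks were counted at 33.4% of all genes, and fewer at 2.34%, where 0 of the 6 had fewer. A tumour peak that touched no spleen peak was found at 5 of the 6 genes and at 35.3% of all genes. At Jak3 the only such peak lay inside the neighbouring gene B3gnt3, and without it Jak3 had 2 peaks in each tissue. Jak3 thus enters this count, and the count of genes with more tumour peaks, through that peak alone. A spleen peak that touched no tumour peak was found at 3 of the 6 (Jak1, Socs1 and Cish) and at 5.63% of all genes. With the tumour list reduced to its strongest peaks, as many as in the spleen list, 17 tumour peaks were left at the 6 genes. All 6 peaks lost were at Jak1, which then had 2 tumour and 5 spleen peaks, so its direction turned and 4 of the 6 genes had more tumour than spleen peaks. Without flanks the counts were 14 tumour and 11 spleen peaks, and with the stronger 50% of each list 17 and 8. Tumour peaks without flanks outnumbered spleen peaks only at Il2rb (4 and 1) and Jak1 (8 and 5). Jak3 then had 1 of each, and spleen peaks were more at Il2ra (1 and 2), Socs1 (0 and 1) and Cish (0 and 1).

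**Figure D1:**
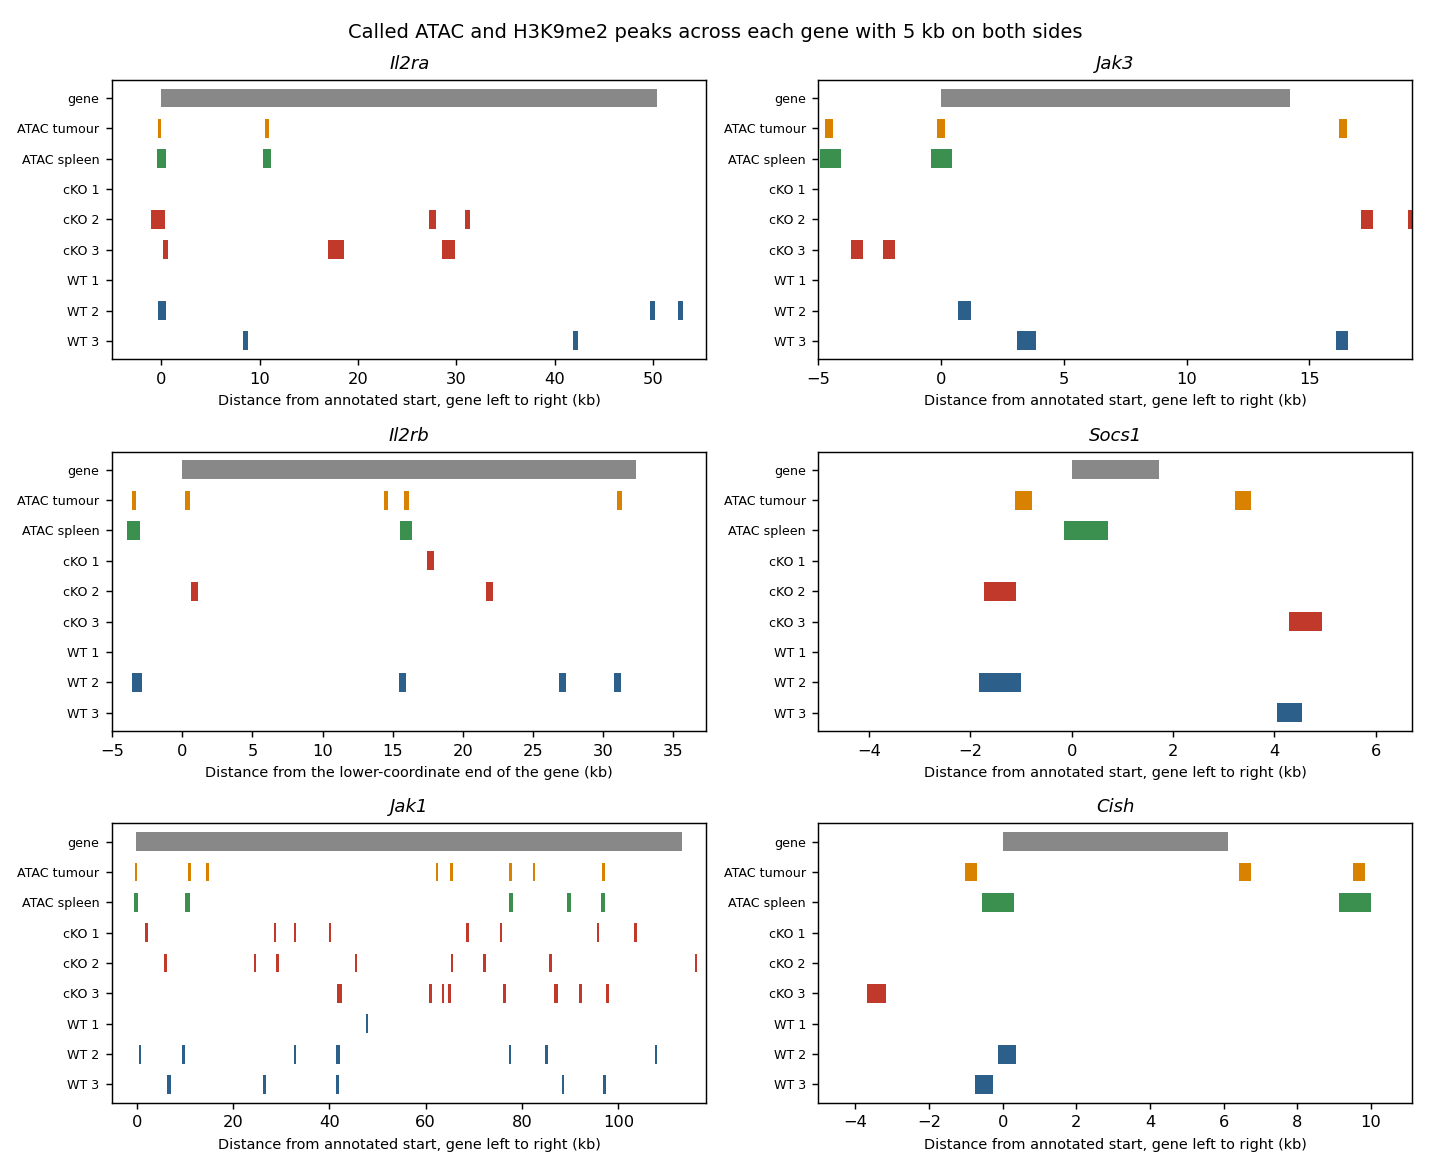
Peaks called in each library across the 6 genes with 5 kb on both sides; the x axis is the distance in kb from the annotated start along the gene (for Il2rb from its lower-coordinate end), and each row is a library, with the gene in grey on top. Tumour ATAC peaks lie beside the start of Socs1 and Cish where the spleen peak lies on it, and Jak1 and Jak3 have a peak on the start in both tissues. At Il2ra the spleen peak covers the start, and the tumour peak ends just before it but touches the spleen peak.

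Of the receptor chains, Il2ra (chromosome 2, 11642792 to 11693194) had the same pair of open sites in tumour and spleen. The first lay at the start of the gene. In tumour it ran from 11642409 to 11642731, just before the start, with 37.6 tags per 10000000 tags of the library. In spleen it ran from 11642383 to 11643251, across the start, with 20.3. The second lay inside the gene, with its centre 10740 bp after the start, and held 69.5 tags in tumour and 35.2 in spleen. Tags are the authors' values over peaks of different width and are not compared between tissues. Within the tumour list the first site was stronger than 66.0% of peaks and the second than 85.2%. Within the spleen list the corresponding shares were 34.0 and 66.8%. Of all genes, 29.5% had as many tumour peaks as Il2ra or more.

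Il2rb (chromosome 15, 78479256 to 78511621) held the strongest tumour peaks of the 6 genes and 3 tumour peaks that touched no spleen peak. The strongest lay inside the gene from 78493603 to 78493925 with 187.7 tags, above 99.1% of the tumour list. The nearest spleen peak was 823 bp away. The centres of both peaks, 78493764 and 78495182, were closer than the 1738 bp that the spleen caller required. No further spleen peak could thus be called there beside the one reported. A second peak from 78495091 to 78495413 had 135.9 tags, above 97.3% of the list, and touched a spleen peak of 41.6 tags. The other tumour peaks without a spleen peak lay near the ends of the gene, with 36.7 tags at 78479444 to 78479766 and 39.0 tags at 78510263 to 78510585. A shared site was called outside the gene at 78475662 to 78475984, with 41.6 tags in tumour. As many tumour peaks as the 5 at Il2rb were found at 3.55% of all genes, and as many tumour-only peaks at 5.96%.

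Jak1 (chromosome 4, 101151974 to 101265282, minus strand), the kinase of the beta chain, is the longest of the genes and had the most peaks, 8 in tumour and 5 in spleen. As many tumour peaks were found at 1.02% of all genes and as many spleen peaks at 0.375%, counts that are not adjusted for length. With the tumour list cut to the length of the spleen list, or to its stronger 50%, Jak1 kept 2 tumour peaks, fewer than Il2rb with 5 and Jak3 and Cish with 3 each. Per 10 kb of span Jak1 had 0.649 tumour peaks, fewer than Cish with 1.86 and Socs1 with 1.71 and more than Il2ra with 0.331. The strongest tumour peak of Jak1 was at its start, with 83.2 tags and above 89.3% of the list, and it touched a spleen peak of 24.4 tags. The 4 tumour peaks that touched no spleen peak were weak, with 10.6 to 18.6 tags and above 14.4 to 43.3% of the list. Spleen had 1 peak that touched no tumour peak, 89743 bp into the gene, with 18.5 tags.

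Jak3 (chromosome 8, 71676383 to 71690577), the kinase of the gamma chain, was open at its start in both tissues. That site had 27.4 tags in tumour, above 58.4% of the list, and 17.2 in spleen, above 10.9%. A second shared site 4559 bp before the start touched the neighbouring gene Unc13a, with 28.3 tags in tumour. The strongest tumour peak of the span, from 71692602 to 71692924 with 65.5 tags, touched no spleen peak. It lay beyond the end of Jak3 inside the neighbouring gene B3gnt3, so the peak cannot be given to Jak3 by position.

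At the feedback inhibitors the spleen peak lay on the start, and the nearest tumour peak lay beside it and touched no spleen peak. At Il2ra the tumour peak also ended before the start, but it touched the spleen peak. At Socs1 (chromosome 16, 10783808 to 10785536, minus strand) the spleen peak covered the start, from 10784811 to 10785679, with 70.9 tags and above 93.0% of its list. No tumour peak lay there. Tumour had a peak of 77.0 tags with its centre 953 bp before the start and a peak of 80.6 tags with its centre 3378 bp after it, above 87.9 and 90.9% of the list. The first was 649 bp from the spleen peak. At Cish (chromosome 9, 107296659 to 107302784) the spleen peak again covered the start, from 107296091 to 107296959 with 35.2 tags, and held both STAT motif matches. The nearest tumour peak, from 107295631 to 107295953 with 62.4 tags, ended 138 bp short of it. Tumour had a further peak of 56.7 tags just past the end of Cish and a peak of 54.5 tags with its centre 9684 bp after the start, and the last of these touched a spleen peak of 26.7 tags.

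The tumour peaks at Socs1 stood 4.66 and 4.19 times above their surrounding 10 kb and those at Cish 5.06 to 6.46 times, where the caller required 4. The lists hold called peaks only, and the tumour signal at these starts was not analysed here. By centre, the tumour peaks before both starts lay within 1738 bp of the spleen peak, the minimum distance of the spleen caller. No further spleen peak could thus be called at those sites beside the one on the start. When centres within 1 kb counted as shared, the Cish peaks before the start counted as the same site and 12 tumour peaks were shared.

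**Figure D2:**
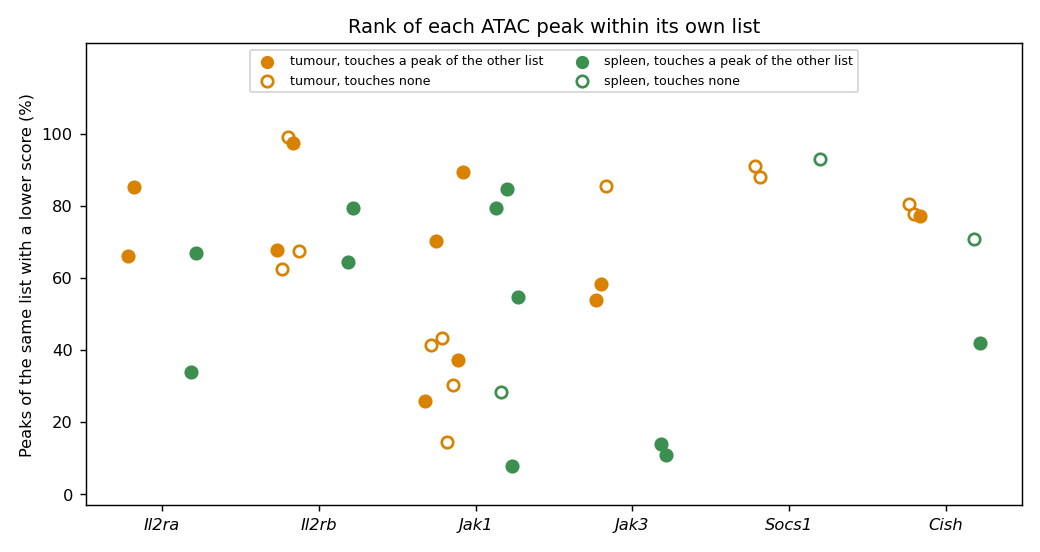
Rank of each ATAC peak at the 6 genes within its own list; the y axis is the percent of peaks of that list with a lower score, and open points touch no peak of the other list. The 2 strongest tumour peaks of Il2rb lie above 97.3 and 99.1% of the tumour list, and the open points of Jak1 lie below 50%.

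The H3K9me2 peaks at the 6 genes had low scores and seldom recurred between libraries. Over the 6 libraries there were 69 peaks, of 500 to 1650 bp, with scores of 5 to 8.5 tags. The median score of a whole list was 8 to 9.5 tags. These peaks fell on 62 separate stretches, and only 5 stretches were found in 2 or more libraries. With the stronger 50% of each list nothing was left at Il2rb, Jak1, Jak3, Socs1 or Cish, and at Il2ra only cKO replicate 3 kept 0.828% of the span. In that reduced list 0 of the 6 genes could be tested. Most other genes dropped out as well, with 6923 tested there against 19016 with the full lists.

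The covered percent of the span varied as much within a genotype as between genotypes. At Il2ra the cKO libraries, in the order of replicates 1 to 3, had 0, 4.31 and 5.84%, and the WT libraries in the same order had 0, 2.93 and 1.66%. Replicate 1 of both genotypes was free of peaks, and the other cKO libraries lay above the other WT libraries. The means were 3.38 ± 3.03% in cKO and 1.53 ± 1.47% in WT (SD, n = 3; limma adjusted p = 0.715). Without cKO replicate 1 the difference rose from 1.86 to 3.55 percentage points (limma adjusted p = 0.545), and without cKO replicate 3 it was 0.627. The mark covered the start in cKO replicate 2 and WT replicate 2 and lay just after it in cKO replicate 3. Peaks of cKO replicates 2 and 3 and WT replicate 2 joined in a stretch from 11641742 to 11643424. Those of cKO replicate 2 and WT replicate 2 touched the tumour ATAC peak there, and that of cKO replicate 3, from 11642924 to 11643424, lay past it and touched the wider spleen peak. The other 8 stretches of Il2ra were found in 1 library each.

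At Il2rb the covered percent was 1.18, 2.36 and 0% in cKO and 0, 5.096 and 0% in WT. WT replicate 2 alone carried the mark among WT libraries, so the groups overlapped fully. The means were 1.18 ± 1.18% and 1.70 ± 2.94% (SD, n = 3; limma adjusted p = 0.923). Without cKO replicate 3 the sign turned, with a difference of 0.0716 percentage points. Without WT replicate 2 the sign turned as well, with 1.18% in cKO and 0% in WT, but the mean was then under 1% and the gene was not tested. Of the 4 peaks of WT replicate 2, 3 touched a tumour ATAC peak, and 0 of the 7 stretches at Il2rb recurred in a second library.

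With 5 kb on both sides, Jak1 was the only one of the genes whose groups did not overlap. It was covered over 3.37, 3.35 and 4.16% in cKO and over 0.405, 3.11 and 2.39% in WT. WT replicate 1 was the lowest, with a single peak of 500 bp in the span, and the highest WT library lay just under the lowest cKO libraries. The means were 3.63 ± 0.465% and 1.97 ± 1.40%, a difference of 1.66 percentage points (SD, n = 3; limma adjusted p = 0.667), and without WT replicate 1 the difference was 0.881. Groups that did not overlap with cKO higher were found at 13.0% of tested genes, and 1 of 6 is near that share. After division by the relative genome-wide coverage of each library the groups overlapped, with 2.60, 3.12 and 4.74% in cKO and 0.431, 3.14 and 2.91% in WT. With peak lists of equal length they overlapped as well, and the difference fell to 0.679 percentage points. Without flanks they also overlapped, with 3.66, 3.21 and 4.53% in cKO and 0.441, 3.38 and 2.60% in WT. The only peak outside the gene, of cKO replicate 2 from 101148786 to 101149286, lay inside the neighbouring gene Raver2. By position it cannot be given to Jak1. The mark at Jak1 was scattered over 34 stretches, of which 2 were found in more than 1 library. The longer of these, from 101222577 to 101223923, was shared by cKO replicate 3 and WT replicates 2 and 3, and lay 19504 bp from the nearest tumour ATAC peak.

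At Jak3 the covered percent was 0, 2.77 and 4.13% in cKO and 0, 2.07 and 5.28% in WT. Both groups thus ran from 0 to a few percent. The means were 2.30 ± 2.11% and 2.45 ± 2.66% (SD, n = 3; limma adjusted p = 0.992), with a sign that turned without cKO replicate 1 (1.004 percentage points) or without WT replicate 3 (1.27). The peaks lay in different places. In the gene itself, without flanks, the 3 cKO libraries had 0% and WT replicates 1 to 3 had 0, 3.52 and 5.48% (difference -3.001 percentage points, limma adjusted p = 0.650). The cKO peaks lay in the flanks, 2 before the start in replicate 3 and 2 beyond the end in replicate 2. Both peaks of cKO replicate 2 lay inside the neighbouring gene B3gnt3, as did the WT replicate 3 peak from 71692467 to 71692967. By position these peaks cannot be given to Jak3.

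At Socs1 the covered percent was 0, 5.52 and 5.58% in cKO and 0, 7.01 and 4.26% in WT, and no peak lay in the gene itself. Each of the 4 libraries with the mark had a single peak, on 1 of 2 stretches. The stretch before the start, from 10786540 to 10787362, was marked in cKO replicate 2 and WT replicate 2 and touched the tumour ATAC peak. The stretch beyond the end, from 10780592 to 10781483, was marked in cKO replicate 3 and WT replicate 3, 514 bp from the other tumour peak. Libraries of different genotype thus shared the places. The means of 3.70 ± 3.20% and 3.76 ± 3.53% differed by -0.0568 percentage points (SD, n = 3; limma 95% interval -5.55 to 5.43, adjusted p = 1.0). The sign turned without cKO replicate 1 (1.79) and without WT replicate 2 (1.57) or 3 (0.196).

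At Cish the covered percent was 0, 0 and 3.10% in cKO and 0, 3.10 and 3.10% in WT, a single peak of 500 bp wherever it was above 0. The means were 1.03 ± 1.79% and 2.07 ± 1.79% (SD, n = 3; limma adjusted p = 0.805). The difference was -1.03 percentage points, -2.07 without cKO replicate 3 or without WT replicate 1, and -0.517 without any of the other 4 libraries. The cKO peak lay 3422 bp before the start. In WT replicate 2 the peak, from 107296524 to 107297024, covered the start and both STAT motif matches, and in WT replicate 3, from 107295905 to 107296405, it lay just before the start and touched the tumour ATAC peak.

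**Figure D3:**
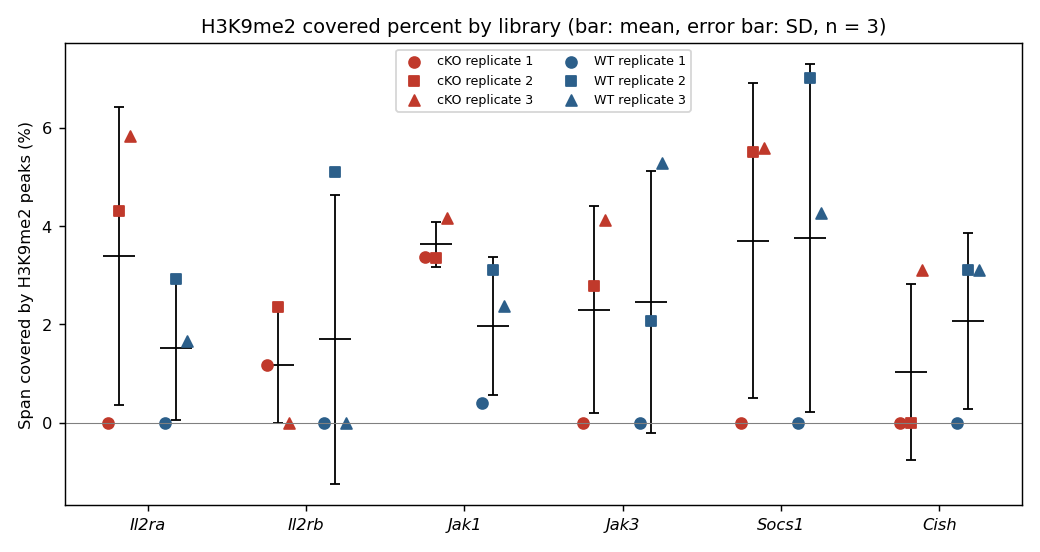
Percent of each gene's span covered by H3K9me2 peaks in the 3 cKO (red) and 3 WT (blue) libraries; symbols give the replicate, horizontal bars the mean and error bars the SD (n = 3). WT replicate 1 is at 0 at 5 of the 6 genes and cKO replicate 1 at 4, and Jak1 alone shows groups that do not overlap.

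All 6 genes passed the filter of a mean of 1% over the 6 libraries, and 0 passed an adjusted p of 0.05 with limma. At an unadjusted p under 0.05 the count was also 0 of 6. Over the 19016 genes tested the limma counts were 0 (0.0%) and 1591 (8.37%). Of the 6 genes, 2 had a higher mean in cKO (Il2ra and Jak1) and 4 a lower mean, where 71.1% of tested genes were higher in cKO. The median difference of the 6 was -0.102 percentage points, beside 1.26 over all tested genes. By the mean over 6 libraries the order was Socs1 (3.73%), Jak1 (2.80%), Il2ra (2.46%), Jak3 (2.38%), Cish (1.55%) and Il2rb (1.44%), and no neighbours in it differed beyond the spread between libraries. The standard error of the difference (limma) was 1.32 percentage points for Jak1 and 2.37 for Socs1, the smallest and largest of the 6. The 95% interval ran from -2.28 to 5.99 percentage points for Il2ra, -4.23 to 3.19 for Il2rb, -1.41 to 4.73 for Jak1, -4.29 to 3.99 for Jak3 and -4.30 to 2.23 for Cish, so shifts of a few percentage points in either direction were not detectable.

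**Figure D4:**
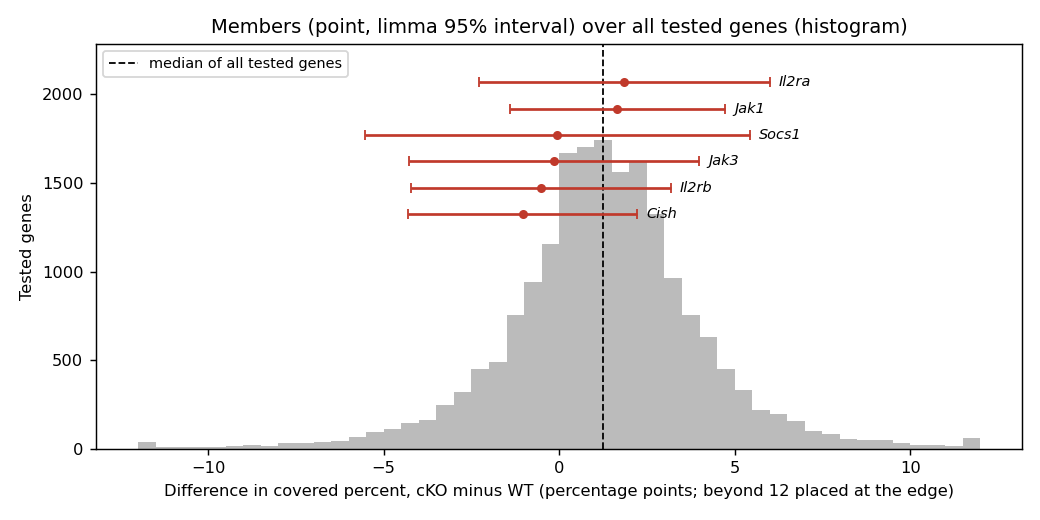
Difference in covered percent, cKO minus WT, for the 6 genes (red points with limma 95% intervals) above the histogram of all tested genes; the dashed line is the median of all tested genes, 1.26 percentage points. Each of the 6 intervals includes 0 and the median of all genes.

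Replicate 1 of both genotypes was most often empty. WT replicate 1 had 1 peak over all 6 genes and cKO replicate 1 had 9, of which 8 were at Jak1, while the other 4 libraries had 11 to 17. WT replicate 1 was at 0 at 5 of the 6 genes and cKO replicate 1 at 4, the exceptions being Jak1 in both and Il2rb in cKO replicate 1. Over all protein-coding genes 45.5% were at 0 in WT replicate 1 and 26.3% in cKO replicate 1, the library with the largest covered length. The median covered percent of the 6 genes was 0 in both of these libraries, where that of all genes was 1.004% in WT replicate 1 and 3.58% in cKO replicate 1. In cKO replicate 2 it was 3.06%, below the 3.95% of all genes. It lay above that of all genes in cKO replicate 3 (4.15 and 2.77%), WT replicate 2 (3.10 and 2.91%) and WT replicate 3 (2.74 and 2.16%).

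A minority of the H3K9me2 peaks at these genes lay on open chromatin. Of the 69 peaks, 13 (18.8%) touched a tumour ATAC peak, beside 1.64% of all H3K9me2 peaks and 3.55% of those in the spans of the 13105 genes with a tumour peak, a background not matched for the number of ATAC peaks per gene. They came from 4 libraries, with 3 in cKO replicate 2, 1 in cKO replicate 3, 6 in WT replicate 2 and 3 in WT replicate 3. Within 1 kb of the centres of the tumour ATAC peaks, the covered share was 0.154, 7.41 and 3.88% for cKO and 0, 10.7 and 4.06% for WT, in the order of the replicates. In the rest of the spans the values were 1.96, 2.46 and 3.89% in cKO and 0.214, 2.05 and 1.88% in WT. Replicate 2 of both genotypes and WT replicate 3 were thus higher near the open sites, both libraries of replicate 1 were lower, and cKO replicate 3 was about equal. Around all tumour ATAC peaks of the genome the coverage was 2.28 to 5.45%. These are descriptions with no test, and the ATAC library and the H3K9me2 libraries are separate samples.

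The wider pathway was read in lists of other genes. Of 21 other genes of IL-2 signalling, all 21 had a tumour peak and 16 a spleen peak. Stat5b, the gene of a transcription factor that IL-2 activates, had 9 tumour and 3 spleen peaks, and Pik3r1, which encodes the regulatory subunit of PI3-kinase, had 8 and 4. Of 20 tested for H3K9me2, 12 were higher and 8 lower in cKO and 0 passed with limma, with a median difference of 0.280 percentage points. The smallest limma p values belonged to Pik3r1 (5.85 ± 2.51% in cKO and 2.31 ± 0.705% in WT), Mapk3, the kinase ERK1 (3.80 ± 4.20% and 0%), and Syk, a tyrosine kinase (8.24 ± 3.29% and 4.05 ± 2.08%), with adjusted p of 0.568, 0.568 and 0.570. Groups without overlap and higher in cKO were found at 1 of the 20 (Pik3r1), beside 13.0% of all tested genes.

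Cytokines and receptors of the common gamma chain family were open at 11 of 12 genes in tumour and 6 of 12 in spleen, with Il21 free of tumour peaks. Il21r, the interleukin-21 receptor, had 5 tumour and 3 spleen peaks and Il4ra, the interleukin-4 receptor chain, had 4 and 2. All 12 were tested for H3K9me2, 7 were higher and 5 lower in cKO, and 0 passed with limma. Il9, a cytokine gene, had 0% in cKO and 3.85 ± 3.85% in WT (0.568 for the limma adjusted p). Il7r, the interleukin-7 receptor, had 9.72 ± 2.80% and 5.83 ± 3.19% (0.636), and Il2 itself 2.19 ± 1.89% and 5.94 ± 5.39% (0.667).

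Of the 10 other JAK, SOCS and PIAS genes, all 10 had a tumour peak and 7 a spleen peak. Jak2, a kinase of other cytokine receptors, had 4 tumour peaks and 1 spleen peak, and Pias3, an inhibitor of STAT proteins, had 3 and 0. Of 9 tested for H3K9me2, 8 were higher and 1 was lower in cKO, with a median difference of 1.34 percentage points, close to that of all genes. Socs5, another member of the SOCS family, had 4.75 ± 1.69% in cKO and 0.826 ± 0.715% in WT without overlap (0.560 for the limma adjusted p). Pias1 had 4.46 ± 0.826% and 1.82 ± 1.68% (0.571), also without overlap, and Socs7 1.90 ± 0.729% and 0.360 ± 0.624% (0.613). The count of 2 without overlap and higher in cKO stands beside 13.0% of tested genes.

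Of 20 targets of STAT5 in T cells, 19 had a tumour peak and 14 a spleen peak, with 78 and 29 peaks in all. Ikzf2, which encodes the Treg factor Helios, had 15 tumour peaks and 3 spleen peaks, and the cyclin gene Ccnd3 had 11 and 5. Bcl2, which encodes a survival factor, had 9 and 4. Of 17 tested for H3K9me2, 11 were higher, 5 lower and 1 equal in cKO, with a median difference of 1.05 percentage points, and 0 passed with limma. Prdm1, which encodes Blimp-1, had 7.25 ± 2.10% in cKO and 2.32 ± 1.66% in WT (0.567 for the limma adjusted p). Groups without overlap and higher in cKO were found at 2 of the 17 (Prdm1 and Ccnd3), beside 13.0% of all tested genes. Bcl2 had 4.81 ± 1.39% and 2.50 ± 0.883% (0.621), and Myc, a growth regulator, had 1.20 ± 1.85% and 5.73 ± 6.14% (0.628).

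The genes most like Socs1 and Jak1 were sought by the mean absolute difference in covered percent over the 6 H3K9me2 libraries. Nearest to Socs1, the gene with the highest mean, were Nupr1 (0.562 percentage points), Cela3a (0.721) and H2-M3 (0.727). All 3 were at 0 in replicate 1 of both genotypes, as Socs1 was. Nearest to Jak1, the gene with the most tumour ATAC peaks, were Cblb (0.319), Prkcq (0.328) and Trim33 (0.362). Each of these was lowest in WT replicate 1. As the genes were picked for likeness in the same 6 libraries, these shared low values follow from the choice.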

How the data were processed

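ATAC-seq (1 tumour and 1 spleen library) and H3K9me2 CUT&RUN (3 cKO and 3 WT) were read from deposited peak lists, grouped by title. Per the submitters' processing notes, the tools were Bowtie2 2.4.2, HOMER, deepTools, Trim Galore 0.6.6, SAMtools 1.11 and Picard and the build mm10, with no role stated for any. Whether ATAC reads were shifted is not stated there. Per the file headers, HOMER findPeaks was run on each library alone without a control. For H3K9me2 the histone style was used, with a peak size of 500 bp, a tag threshold of 5 and a Poisson p-value of 0.05 against the local 10 kb, and for ATAC the factor style. Per the file headers, the tag signal is scaled to 10000000 tags and the score is in tags of the library. The deposited fold (a ratio to the local region), the p-value, the focus ratio (a fraction) and the region size in bp (other unit) are the authors' own. The deposited H3K9me2 lists hold 24.4 to 43.9% of the peaks in their headers, a later filter that no header states. They measure local enrichment and not amount.

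Overlapping peaks of a library were joined (unplaced contigs left out), and the covered percent of each protein-coding span with 5 kb on both sides was computed with NumPy 2.4.6 and pandas 2.3.3 in Python 3.11.15. Genes with a mean under 1% were not tested. The p-values come from limma 3.58.1 under R 4.3.3, moderated with a mean trend and with genotype as the only term. They were adjusted by Benjamini-Hochberg over all tested genes, with a threshold of 0.05. The limma code was also run on simulated data. That run does not show how limma performs on values with many zeros or at differences as small as those described here. No conclusion is drawn from it. Figures were drawn with matplotlib 3.10.9. From each list of other genes, the 3 with the smallest limma p and the 2 with the most tumour ATAC peaks are named, and any other gene was chosen after its values were seen. The genes and lists were chosen with earlier results of these data known. Exons and introns were not used here, as the gene table gives spans only.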

Additional observations from a re-analysis of the deposited data

How the results depend on the processing

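Of 78 recomputed differences of the 6 genes, 70 kept their side of the threshold without turning sign and 8 turned sign; 0 passed with limma, the lowest adjusted p being 0.524. The sign turned for Il2rb on the arcsine square root scale (0.0118), for Socs1 with cKO replicates 1 and 3 averaged as 1 (0.397, chosen after seeing the data) and where 1 library was left out, as given with each gene; the cause was not tested. Leaving out 1 library gave 0.627 to 3.55 percentage points for Il2ra, -1.37 to 0.0716 for Il2rb (not counting WT replicate 2, without which cKO had 1.18% and WT 0% and the mean was under 1%), 0.881 to 2.23 for Jak1, -1.37 to 1.27 for Jak3, -1.94 to 1.79 for Socs1 and -2.07 to -0.517 for Cish. The sign-turning values were 1.004 (Jak3) and 1.79 (Socs1) without cKO replicate 1, 0.0716 (Il2rb) without cKO replicate 3, 1.57 (Socs1) without WT replicate 2, and 1.27 (Jak3) and 0.196 (Socs1) without WT replicate 3. Il2rb gave a difference of 0 without flanks. Genes whose mean fell under 1% gave no value in a setting.

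Over all genes, limma called 0, as it did in each setting but the arcsine square root scale (1 gene) and no filter on low values (12 genes). An unadjusted p under 0.05 was reached by 1591 genes (1412 higher, 179 lower in cKO), 1274 (963 and 311) after division by genome-wide coverage, 501 (274 and 227) with lists of equal length, 427 with the stronger 50% of each list and 973 without flanks. Leaving out 1 library gave 1088 to 2204, with 739 higher and 349 lower without WT replicate 1 and 862 and 269 without WT replicate 3. The median difference was 1.26 percentage points, and 0.722 after that division. With the replicate block 0 genes passed, 1484 had an unadjusted p under 0.05, and the differences of the 6 genes stood, with adjusted p from 0.607 for Il2ra and Jak1 to 1.0 for Socs1. Replicates of equal number shared only a number: their deviations correlated at 0.076, 0.005 and 0.026, and not every library correlated best with its own number. ATAC counts at the 6 genes moved to 14 tumour peaks without flanks and to 8 spleen peaks with the stronger 50% of each list. The lowest H3K9me2 scores at the 6 genes equal the caller's threshold of 5 tags, and the library with the fewest tags (cKO replicate 1, 24774509) had the largest covered length, 141 Mb.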
